A study of Mus musculus with 12 samples.

Results

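The pericentral Wnt-dependent zonation genes of the liver are described here as 10 genes, Glul, Oat, Rhbg, Slc1a2, Lgr5, Axin2, Tbx3, Rnf43, Znrf3 and Lect2, out of 47729 gene identifiers with counts. They were chosen by name, as genes known to depend on Wnt signaling in the hepatocytes around the central vein, with no threshold on any measured value. All 10 were matched to 1 identifier each, and all 10 passed the filter on low counts, as did 16823 genes in all. Their counts ranged from 70 for Rhbg to 70287 for Glul in a single liver.

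Liver RNA of 12 male C57BL/6 mice was sequenced at 9 weeks of age, with 4 mice in each of 3 groups. Healthy mice (Naive_vehicle) were wild type and received vehicle, without streptozotocin or the switch to a high-fat diet. The methods describe no difference in genotype between the groups. STAM-vehicle mice (STAM_vehicle) and STAM-I-BET151 mice (STAM_treated) were injected with streptozotocin on day 2 of life, which destroys pancreatic islets, and were fed a high-fat diet from week 4, so that diabetes and non-alcoholic steatohepatitis (NASH) develop together. From week 6 to week 9 they received oral vehicle or 10 mg/kg I-BET151 daily, a small molecule that occupies the bromodomains of BET proteins, by which these bind acetylated histones. Streptozotocin and the diet were always combined, so their parts cannot be told apart. The methods describe a different suspending agent for I-BET151 than for the vehicle, and the compound and its agent cannot be told apart either. Levels are given as CPM, the count scaled to the library total after TMM normalization (trimmed mean of M values). The total count per liver was between 34711229 and 53365596.

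In the liver lobule, endothelial cells of the central vein secrete Wnt ligands and R-spondin, and the neighboring hepatocytes respond through Frizzled receptors, LRP co-receptors and β-catenin. The response keeps ammonia scavenging and glutamate handling in the innermost hepatocytes, while urea synthesis and gluconeogenesis are stronger near the portal vein. β-catenin also switches on its own brakes, so that genes such as Axin2, Rnf43 and Znrf3 serve as readouts of the signal.

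The most marked values were those of Oat, which was highest in healthy livers, lower in STAM-vehicle livers and lowest in STAM-I-BET151 livers. Between STAM-I-BET151 and healthy livers 3 of the 10 genes passed the test, Oat, Lgr5 and Lect2, and all 3 fell, where 15.1% of all genes passed and 5.25% were lower. With sequencing lane as a covariate none of the 3 passed (edgeR adjusted p = 0.0716, 0.157 and 0.34). The livers were spread over 6 lanes, and only 2 lanes held both a STAM-I-BET151 and a healthy liver. These adjusted p-values alone therefore cannot tell an effect of lane from a loss of precision. In those 2 lanes the log2 ratios of STAM-I-BET151 to healthy livers were -1.81 and -0.97 for Oat. They were -1.57 and -1.09 for Lgr5 and -1.37 and -0.40 for Lect2. The sign of these ratios is fixed by the lack of overlap between the groups. The number of all genes that passed with lane is not given here. In neither of the other comparisons did any of the 10 pass edgeR's quasi-likelihood test after Benjamini-Hochberg adjustment over all genes. Glul, the classic marker of the same hepatocytes, had means within 1.11-fold of each other in the 3 groups. In the plot of CPM by mouse, Oat separates the groups as steps and Glul does not.

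**Figure D1:**
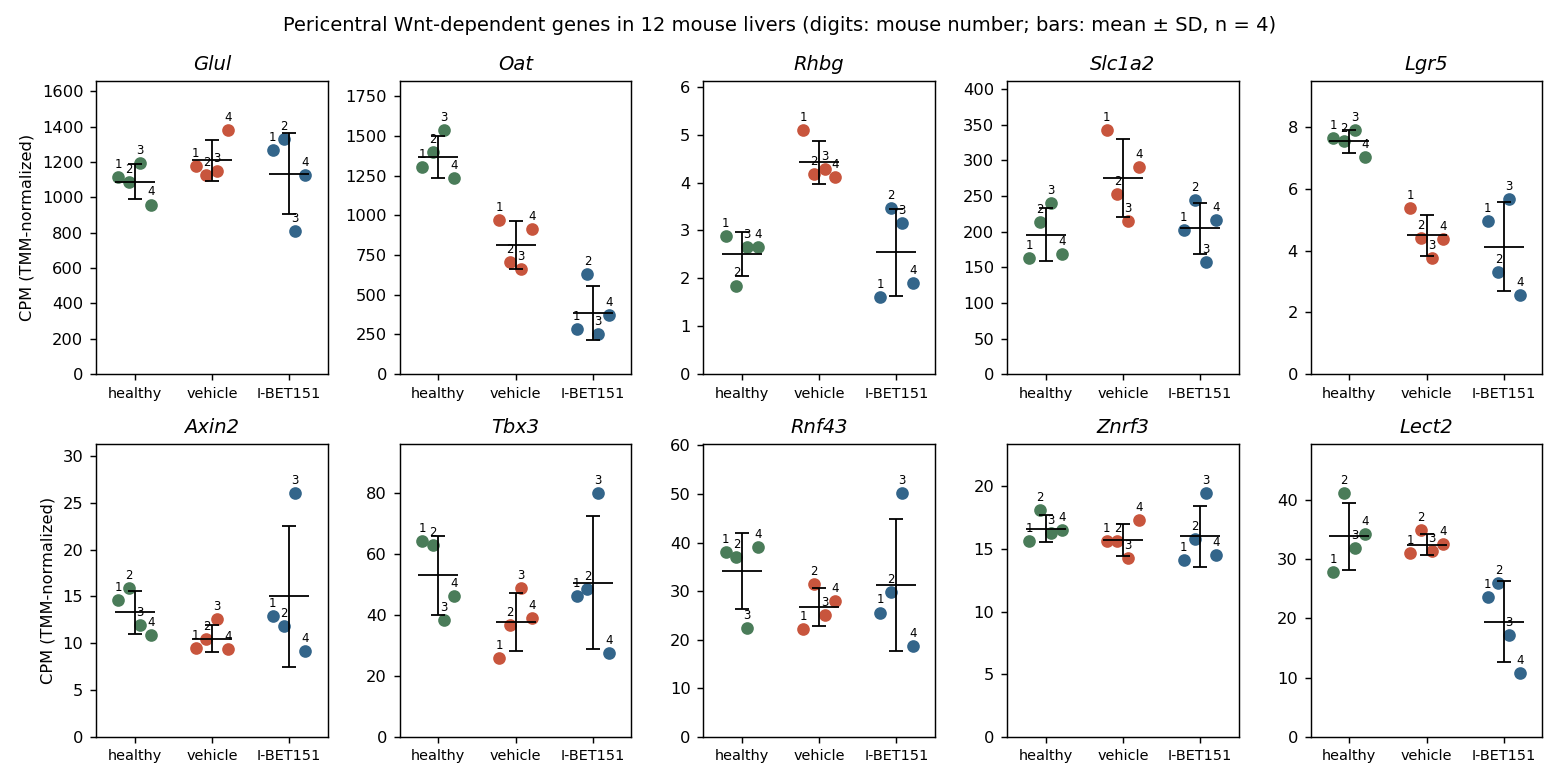
CPM (TMM-normalized, linear axes from 0) of each of the 10 genes in each liver, with the mouse number at each point and the mean ± SD of 4 mice in black. Oat falls from 1235 to 1538 CPM in healthy livers to between 250 and 632 CPM in STAM-I-BET151 livers, and STAM-I-BET151 mouse 3 is the highest of its group in Lgr5, Axin2, Tbx3, Rnf43 and Znrf3.

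The library of 1 mouse stands apart and bears on the I-BET151 values below. STAM-I-BET151 mouse 3 had a TMM normalization factor of 1.609, against 0.77 to 1.108 in the other 11 livers, and its 8 hepatocyte markers summed to 20640 CPM, against 71432 to 87817 CPM in the other STAM-I-BET151 livers. In a fit with sample weights it received a weight of 0.0749, where the other livers had 0.594 or more. It is kept in the values, and the members' results whose call or direction it changes are given again without it. The hepatocyte markers summed to between 105233 and 128179 CPM in healthy livers and between 54701 and 74993 CPM in STAM-vehicle livers, and 0 of the 8 passed edgeR's test in any comparison, with 1 of 8 (STAM-vehicle against healthy), 0 of 8 (STAM-I-BET151 against STAM-vehicle) and 4 of 8 (STAM-I-BET151 against healthy) at an unadjusted p under 0.05 and 0, 0 and 3 called by DESeq2. Without STAM-I-BET151 mouse 3 in the fit, edgeR called 4 of the 8 lower in STAM-vehicle against healthy livers, where 1751 of 16967 genes were lower. In STAM-I-BET151 against healthy livers 1 of the 8 was lower, and between the STAM groups 0 passed. The part of the lower hepatocyte sums in the results was not tested. In whole liver RNA, fewer cells of a type and less RNA per cell cannot be told apart.

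Per kilobase of exon, the 10 genes span a wide range of levels. In healthy livers Oat (580 ± 55.6 CPM per kilobase, SD, n = 4) stood above Glul (328 ± 29.3), followed by Lect2 (36.8 ± 6.08), Slc1a2 (15.0 ± 2.83), Tbx3 (8.01 ± 1.94) and Rnf43 (5.21 ± 1.2). Axin2 (2.42 ± 0.424), Znrf3 (2.10 ± 0.137), Rhbg (1.30 ± 0.234) and Lgr5 (0.735 ± 0.0354) were the lowest. Per kilobase of the longest transcript Lgr5 had 1.57 and Rhbg 1.30, so the order of these 2 depended on the length used. Tbx3 and Rnf43, and likewise Axin2 and Znrf3, were closer to each other than the sum of their SDs. In STAM-vehicle livers the order at the top changed, with Glul at 363 ± 35.3 and Oat at 345 ± 64.5, which did not differ beyond their spread. In STAM-I-BET151 livers Glul (341 ± 69.6) was above Oat (163 ± 73.0) by more than the sum of their SDs.

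Oat, Glul, Rhbg and Slc1a2 belong to amino acid and ammonia handling. Oat, ornithine aminotransferase, turns ornithine into glutamate semialdehyde in the mitochondrion. The gene lies on chromosome 7, from 132557478 to 132576398 on the minus strand of GRCm38, with 10 exons in its longest transcript. The healthy livers had 1302, 1399, 1538 and 1235 CPM, the STAM-vehicle livers 972, 708, 661 and 913 CPM, and the STAM-I-BET151 livers 286, 632, 250 and 372 CPM. No liver of any group overlapped with those of another group. The mean was 1369 ± 131 CPM in healthy, 813 ± 152 in STAM-vehicle and 385 ± 172 in STAM-I-BET151 livers (SD, n = 4).

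Against healthy livers, Oat fell by 1.83 on the log2 scale in STAM-I-BET151 livers (SE 0.28, edgeR adjusted p = 0.00131), and it passed in 12 of 12 fits that each left out 1 mouse. With sequencing lane, as the names of the deposited tables give it, as a covariate its adjusted p was 0.0716. The log2 difference of STAM-vehicle from healthy livers was -0.75 (95% interval -1.33 to -0.17, edgeR adjusted p = 0.113), and that of STAM-I-BET151 from STAM-vehicle livers was -1.08 (-1.66 to -0.49, edgeR adjusted p = 0.175). Neither passed its threshold in edgeR (0.05 and 0.1), whereas DESeq2 gave adjusted p-values of 0.0393 and 0.00914, which pass. Without STAM-I-BET151 mouse 3, and likewise without mouse 2, edgeR called both, with adjusted p-values down to 0.024 and 0.0304. In the 3 lanes that held 1 STAM-I-BET151 and 1 STAM-vehicle liver, the log2 ratios of Oat were from -1.76 to -1.29. Their sign is fixed by the lack of overlap between these groups. The lane term changed the STAM-vehicle difference from healthy livers to -0.08 (adjusted p = 0.972), and only 1 lane held a liver of both groups, with a log2 ratio of -0.51.

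Glul, glutamine synthetase, captures ammonia as glutamine in the hepatocytes that line the central vein. It lies on chromosome 1, from 153899944 to 153909723 on the plus strand of GRCm38. Glul had 1116, 1085, 1194 and 959 CPM in healthy livers, 1178, 1125, 1147 and 1381 CPM in STAM-vehicle livers, and 1266, 1331, 811 and 1128 CPM in STAM-I-BET151 livers. The groups overlapped throughout, and the lowest liver of the 12 was STAM-I-BET151 mouse 3. The 95% intervals of the log2 differences were -0.27 to 0.57 for STAM-vehicle against healthy, -0.51 to 0.33 for STAM-I-BET151 against STAM-vehicle and -0.36 to 0.48 for STAM-I-BET151 against healthy livers, and edgeR's adjusted p was 0.698 or more. The difference between the STAM groups was -0.09, and 0.05 without STAM-I-BET151 mouse 3. With library totals in place of TMM, which moved the median of all genes to 0.46, Glul was 0.39 higher in STAM-I-BET151 than in healthy livers and passed (edgeR adjusted p = 0.0437). Glul has a processed copy, Glns-ps1, that shares 9.46% of its 50-base windows, and the methods kept only uniquely mapped reads, so reads from such windows may not have been counted.

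Oat and Glul are shown with the 250 bases before their RefSeq start sites (GRCm38.p6), because they are the most abundant of the 10 genes and only Oat passed a test. Words that the TCF and LEF partners of β-catenin can bind, CTTTG followed by AA, AT, TA or TT on either strand, are in capitals where present, and these windows held none of them. No match says only that these letters are not in this window.
Oat, chr7:132576399-132576648, minus strand: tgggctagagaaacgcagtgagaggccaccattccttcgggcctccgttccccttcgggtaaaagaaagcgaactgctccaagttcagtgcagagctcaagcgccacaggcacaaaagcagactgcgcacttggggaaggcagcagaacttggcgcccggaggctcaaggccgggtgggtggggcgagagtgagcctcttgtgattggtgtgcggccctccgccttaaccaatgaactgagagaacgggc
Glul, chr1:153899679-153899928, plus strand: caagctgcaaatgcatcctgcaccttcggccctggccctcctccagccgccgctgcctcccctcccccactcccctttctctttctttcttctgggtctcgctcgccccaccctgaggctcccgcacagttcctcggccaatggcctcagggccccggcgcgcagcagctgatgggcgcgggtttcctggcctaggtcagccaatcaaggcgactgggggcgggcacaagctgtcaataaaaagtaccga

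Rhbg, an ammonia transporter of the Rhesus family in the hepatocyte membrane, had the opposite pattern to Oat between healthy and STAM-vehicle livers. It lies on chromosome 3, from 88242874 to 88254709 on the minus strand. The healthy livers had 2.89, 1.85, 2.65 and 2.65 CPM, the STAM-vehicle livers 5.10, 4.17, 4.29 and 4.12 CPM, and the STAM-I-BET151 livers 1.62, 3.46, 3.16 and 1.91 CPM. Each STAM-vehicle liver was above every liver of the other groups, while healthy and STAM-I-BET151 livers overlapped. The log2 difference of STAM-vehicle from healthy livers was 0.81 (95% interval 0.29 to 1.34, edgeR adjusted p = 0.0606), and that of STAM-I-BET151 from STAM-vehicle livers was -0.80 (-1.33 to -0.28, edgeR adjusted p = 0.303). Neither passed in edgeR. DESeq2 gave 0.0202 and 0.0669, which pass the thresholds of 0.05 and 0.1. Without STAM-I-BET151 mouse 3 edgeR called both (adjusted p = 0.0232 and 0.0974), and without mouse 1 or 2 of that group the first. Between STAM-I-BET151 and healthy livers the difference was 0.01 (-0.52 to 0.54), and -0.14 without STAM-I-BET151 mouse 3.

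Rhbg is also the member whose reads are hardest to assign. On the same strand, 60.4% of its 50-base windows are shared with Gm38392, an overlapping gene model that had between 0 and 8 counts per liver. How reads that match both were counted is not given in the sources used here, so the level of Rhbg may be understated in every liver.

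Slc1a2, a transporter that takes up glutamate, lies on chromosome 2, from 102658659 to 102790784 on the plus strand. The healthy livers had 163, 214, 240 and 169 CPM, the STAM-vehicle livers 343, 253, 215 and 291 CPM, and the STAM-I-BET151 livers 202, 244, 158 and 216 CPM. The groups overlapped, with STAM-vehicle livers mostly above the others. The log2 difference was 0.49 for STAM-vehicle against healthy (95% interval 0.07 to 0.91, edgeR adjusted p = 0.153) and -0.43 for STAM-I-BET151 against STAM-vehicle livers (-0.85 to -0.01, edgeR adjusted p = 0.562), and neither passed. With sample weights in limma voom the first had an adjusted p of 0.00795, and with library totals in place of TMM edgeR gave 0.77 and 0.00859.

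Lgr5 and Lect2 were the other genes that fell between healthy and STAM-I-BET151 livers. Lgr5 is a receptor for R-spondin that strengthens the Wnt signal, and it lies on chromosome 10, from 115450311 to 115587780 on the minus strand. Lgr5 had 7.66, 7.55, 7.91 and 7.04 CPM in healthy livers, 5.38, 4.42, 3.77 and 4.39 CPM in STAM-vehicle livers, and 4.95, 3.31, 5.68 and 2.57 CPM in STAM-I-BET151 livers. All 8 STAM livers were below all 4 healthy ones, and the STAM groups overlapped.

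Lgr5 fell by 0.86 on the log2 scale in STAM-I-BET151 against healthy livers (SE 0.22, edgeR adjusted p = 0.0195), and it passed in 11 of 12 fits that each left out 1 mouse, the exception being the fit without healthy mouse 3 (adjusted p = 0.0523). The difference of STAM-vehicle from healthy livers was -0.75 (95% interval -1.22 to -0.28, edgeR adjusted p = 0.0555), just outside the threshold. DESeq2 gave 0.00899, and edgeR called it without STAM-I-BET151 mouse 2, 3 or 4 (adjusted p down to 0.0103). Between the STAM groups it was -0.11 (-0.59 to 0.36, edgeR adjusted p = 0.937), and -0.29 without STAM-I-BET151 mouse 3. With lane as a covariate the adjusted p against healthy livers was 0.157 in the STAM-I-BET151 comparison, and with only the 2 groups in the fit it was 0.0603. With library totals in place of TMM the difference was -0.4 (adjusted p = 0.362).

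Lect2 encodes a protein that hepatocytes secrete into the blood and that attracts leukocytes. It lies on chromosome 13, from 56542464 to 56548502 on the minus strand. The healthy livers had 27.8, 41.2, 31.9 and 34.2 CPM, the STAM-vehicle livers 31.0, 34.9, 31.4 and 32.5 CPM, and the STAM-I-BET151 livers 23.6, 26, 17.2 and 10.8 CPM. All 4 STAM-I-BET151 livers were below all 8 others, and the healthy and STAM-vehicle livers overlapped.

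Lect2 fell by 0.80 on the log2 scale in STAM-I-BET151 against healthy livers (SE 0.22, edgeR adjusted p = 0.0259), and it passed in 9 of 12 fits that each left out 1 mouse, but not without healthy mouse 2, 3 or 4 (adjusted p up to 0.0864). Against STAM-vehicle livers the difference was -0.74 (95% interval -1.21 to -0.27, edgeR adjusted p = 0.291; DESeq2 0.111), which did not pass, while limma voom with sample weights gave 0.0292. Between STAM-vehicle and healthy livers it was -0.06 (-0.52 to 0.41, edgeR adjusted p = 0.903). With lane as a covariate the adjusted p against healthy livers was 0.34, and with only the 2 groups in the fit 0.0836. With library totals in place of TMM the difference was -0.43 (adjusted p = 0.201). In the 3 lanes with a liver of both STAM groups, the log2 ratios of Lect2 were from -1.60 to -0.39. Their sign is likewise fixed by the lack of overlap between these groups.

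Lect2 and Slc1a2 are the only members whose windows before the start held one of the 4 words, in both cases CTTTGAT on the opposite strand, and so they are printed. The match began 32 bases before the start of Lect2 and 207 bases before that of Slc1a2. The window of Slc1a2 precedes an internal start of RefSeq and lies within the gene as positioned above, not before its first base. Windows were at hand for 6 of the 10 genes, 7 windows in all with 2 for Rnf43, and 2 of the 7 held a word. Over all 32851 windows of the same length the share was 14.8%, so a match is a description of these letters. Those of Axin2 and Rnf43 held none, and Rhbg, Lgr5, Tbx3 and Znrf3 had no entry.
Lect2, chr13:56548539-56548788, minus strand: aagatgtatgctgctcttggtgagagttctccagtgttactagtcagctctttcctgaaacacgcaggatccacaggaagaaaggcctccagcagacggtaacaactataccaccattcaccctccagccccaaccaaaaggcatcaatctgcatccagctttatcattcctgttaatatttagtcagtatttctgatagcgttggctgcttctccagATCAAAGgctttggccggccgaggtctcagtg
Slc1a2, chr2:102706188-102706437, plus strand: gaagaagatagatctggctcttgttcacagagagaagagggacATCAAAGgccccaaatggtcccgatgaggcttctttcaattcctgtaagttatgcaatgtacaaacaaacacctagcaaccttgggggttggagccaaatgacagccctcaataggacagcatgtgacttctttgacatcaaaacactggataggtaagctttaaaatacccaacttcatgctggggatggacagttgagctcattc

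Axin2, Tbx3, Rnf43 and Znrf3 are regulators and feedback genes of the pathway. Axin2 is a scaffold of the complex that degrades β-catenin and lies on chromosome 11, from 108920349 to 108950783 on the plus strand. The healthy livers had 14.6, 15.9, 11.9 and 10.9 CPM, the STAM-vehicle livers 9.54, 10.4, 12.6 and 9.42 CPM, and the STAM-I-BET151 livers 12.9, 11.8, 26.1 and 9.19 CPM. The value of STAM-I-BET151 mouse 3 was the highest of the 12 livers, and the groups otherwise overlapped. The log2 difference of STAM-I-BET151 from STAM-vehicle livers was 0.52 (95% interval -0.05 to 1.09, edgeR adjusted p = 0.621) with that mouse and 0.12 without it. Against healthy livers it was 0.18 with that mouse and -0.25 without it.

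Tbx3, a transcription factor, lies on chromosome 5, from 119670669 to 119684724 on the plus strand. Tbx3 had 64.5, 63.2, 38.3 and 46.3 CPM in healthy livers, 25.9, 36.9, 48.9 and 39.1 CPM in STAM-vehicle livers, and 46.3, 48.5, 80.3 and 27.7 CPM in STAM-I-BET151 livers. The groups overlapped and mouse 3 of the STAM-I-BET151 group was again the highest. The log2 difference of the STAM groups was 0.43 (95% interval -0.18 to 1.04, edgeR adjusted p = 0.737), and 0.12 without that mouse. Against healthy livers it was -0.07 with that mouse and -0.39 without it. The antisense gene Tbx3os1 overlaps an exon of Tbx3 on the opposite strand and had 34.0 CPM in that liver, against 3.35 to 17.1 CPM in the other 11. The kit marks strand, but the strand setting of the counting is not given in the sources used here, so the reads of the pair may not be fully separated.

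Rnf43 and Znrf3 are membrane ubiquitin ligases that remove Frizzled receptors. Rnf43 lies on chromosome 11, from 87662722 to 87735539 on the plus strand, and Znrf3 on the same chromosome, from 5276324 to 5444847 on the minus strand. Rnf43 had 38.0, 37.1, 22.4 and 39.1 CPM in healthy livers, 22.2, 31.5, 25.0 and 27.9 CPM in STAM-vehicle livers and 25.6, 29.9, 50.3 and 18.7 CPM in STAM-I-BET151 livers. Its log2 difference between the STAM groups was 0.22 (95% interval -0.33 to 0.78, edgeR adjusted p = 0.875) and turned to -0.10 without mouse 3. Against healthy livers it was -0.13 with that mouse and -0.48 without it, and with sample weights in limma voom -0.56 with an adjusted p of 0.0495, past the threshold.

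Znrf3 had the narrowest intervals of the 10 genes. Healthy livers had 15.6, 18.1, 16.3 and 16.5 CPM, the STAM-vehicle livers 15.6, 15.6, 14.3 and 17.3 CPM, and the STAM-I-BET151 livers 14.1, 15.8, 19.5 and 14.5 CPM. Its 95% intervals were -0.35 to 0.19, -0.24 to 0.29 and -0.32 to 0.21 on the log2 scale for STAM-vehicle against healthy, STAM-I-BET151 against STAM-vehicle and STAM-I-BET151 against healthy livers. Between the STAM groups the difference of 0.02 turned to -0.08 without mouse 3, and against healthy livers that of -0.05 to -0.18.

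**Figure D2:**
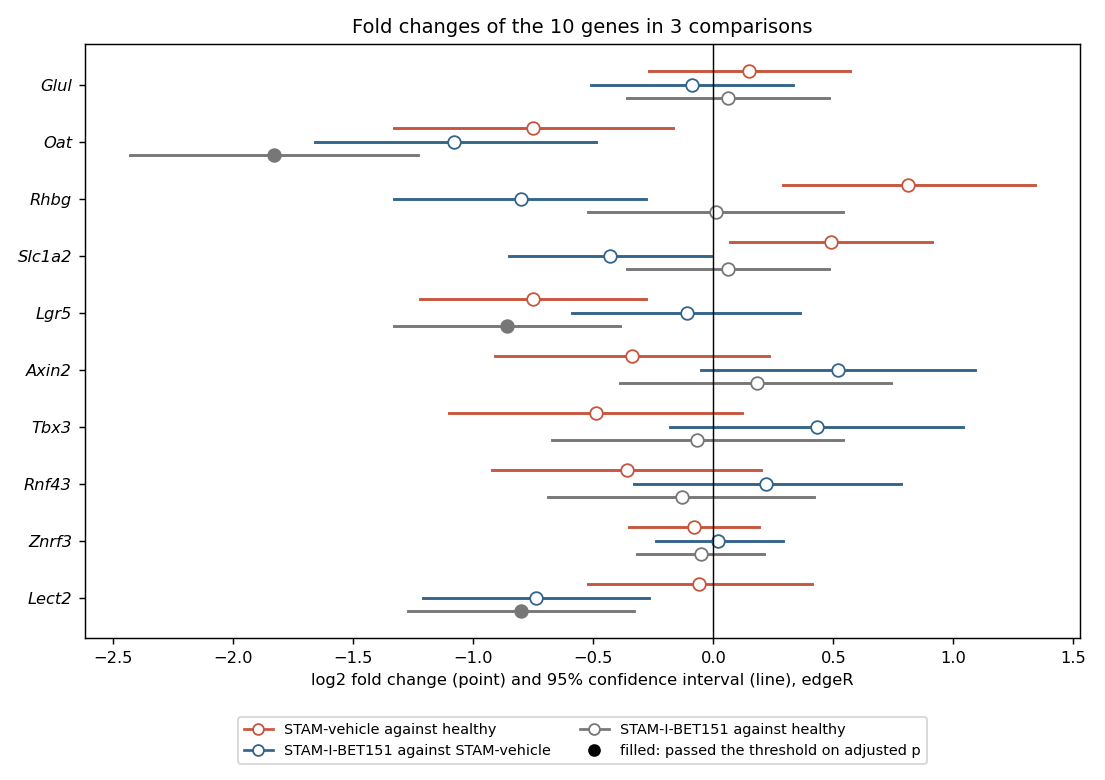
Log2 fold change (x axis) with its 95% confidence interval from edgeR for each gene (y axis) in the 3 comparisons, which share livers. The 3 filled points, Oat at -1.83, Lgr5 at -0.86 and Lect2 at -0.80 in STAM-I-BET151 against healthy livers, passed the threshold, and the other 27 did not.

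Counted over the members, 0 of 10 passed edgeR's test between STAM-vehicle and healthy livers, where 7.1% of all genes did (5.72% higher and 1.38% lower). At an unadjusted p under 0.05 there were 4 (Oat, Rhbg, Slc1a2 and Lgr5), against 22.3% of all genes. DESeq2 called 3 (Rhbg higher, Oat and Lgr5 lower), against 9.95% of all genes, 7.36% higher and 2.59% lower. Livers of the groups did not overlap for the same 3 of the 10, against 26.4% of all genes, 14.2% higher and 12.2% lower.

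In STAM-I-BET151 against STAM-vehicle livers 0 of 10 passed in edgeR, where 0.351% of all genes did (0.0951% higher and 0.256% lower). At an unadjusted p under 0.05 there were 4 (Oat, Rhbg, Slc1a2 and Lect2), against 8.68% of all genes. DESeq2 called 2 (Oat and Rhbg, both lower), against 1.5% of all genes, 0.525% higher and 0.972% lower. Livers of the groups did not overlap for Oat, Rhbg and Lect2, all lower, against 5.04% of all genes, 2.41% higher and 2.63% lower.

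In STAM-I-BET151 against healthy livers 3 of 10 passed in edgeR, all lower, where 15.1% of all genes passed, 9.88% higher and 5.25% lower. Oat, Lgr5 and Lect2 were also those with an unadjusted p under 0.05 (32.6% of all genes), those called by DESeq2 (18% of all genes, 10.9% higher and 7.09% lower) and those whose livers did not overlap (19.8% of all genes, 10.9% higher and 8.85% lower).

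The count of calls depended on which livers entered the fit. Without STAM-I-BET151 mouse 3, which is not in that comparison, 3 of the 10 passed between STAM-vehicle and healthy livers, and with only these 2 groups in the fit 3 did as well. Over all genes 963 higher and 232 lower became 2028 and 1751 without that mouse. Between the STAM groups 2 passed without it, where over all genes 16 higher and 43 lower became 155 and 248. Between STAM-I-BET151 and healthy livers 1 passed without healthy mouse 3, 0 with lane as a covariate, 4 with sample weights in limma voom (Rnf43 in addition) and 2 with library totals in place of TMM (Oat lower and Glul higher). Over all genes 1662 higher and 884 lower became 2683 and 2197 with sample weights and 3234 and 246 with library totals. The median log2 difference of the 10 genes was -0.21, -0.10 and -0.06 in the 3 comparisons in this order, beside 0.009, 0.024 and 0.061 over all genes tested. The members' median was -0.23, -0.20 and -0.32 without STAM-I-BET151 mouse 3.

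**Figure D3:**
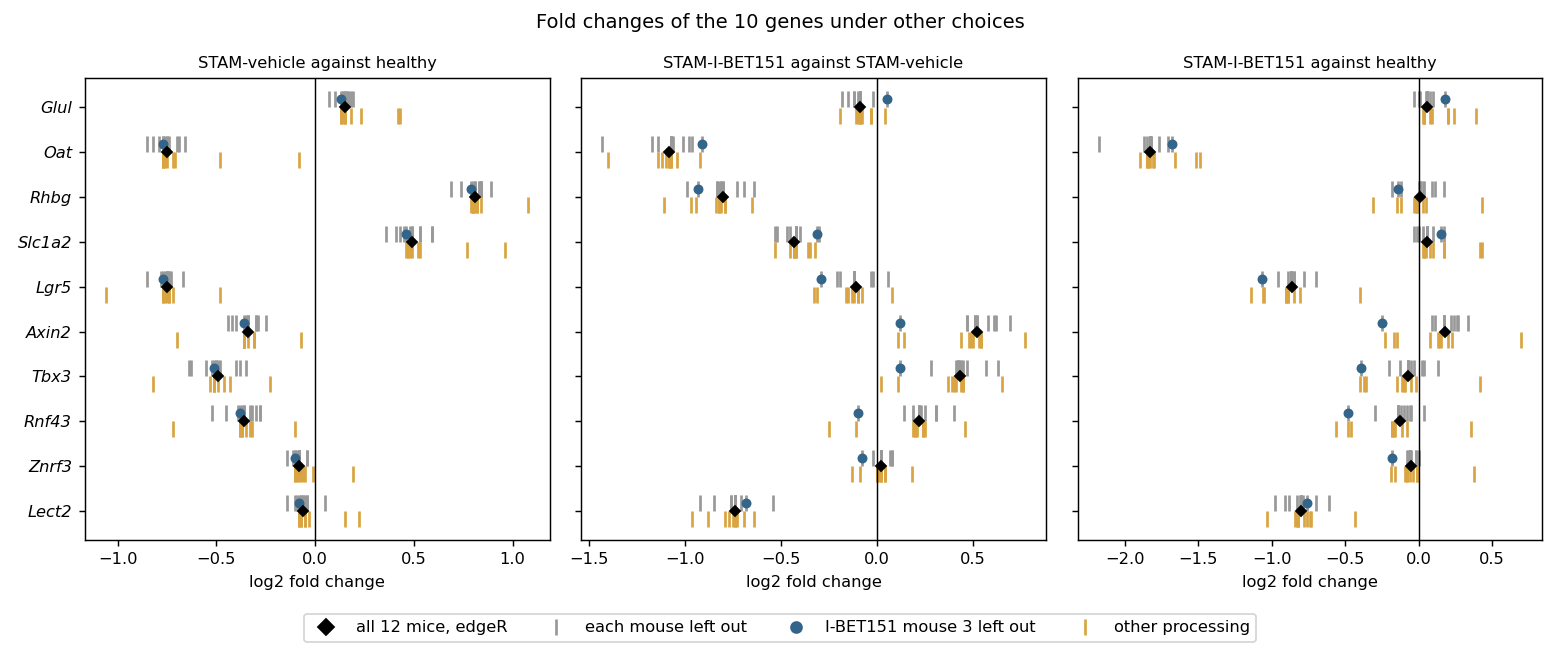
Log2 fold change (x axis) of each gene with all 12 mice (black diamonds), with each mouse left out (grey ticks, STAM-I-BET151 mouse 3 in blue) and with other processing (yellow ticks). Oat in STAM-I-BET151 against healthy livers stays between -2.18 and -1.68 with any mouse left out, whereas Axin2 moves from 0.18 to -0.25 without STAM-I-BET151 mouse 3.

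The 10 genes did not move as a single block across the livers. The split used here, Axin2, Tbx3, Rnf43, Znrf3 and Lgr5 as regulators and Glul, Oat, Slc1a2 and Rhbg as metabolic genes, was made after the values had been seen, and the correlations are given as a description across 12 livers that share groups and library composition. With the group means removed, the 10 pairs of regulators had a median Pearson r of 0.623, and the closest pair was Axin2 and Tbx3 at 0.875. The 6 metabolic pairs had a median of 0.497, with Oat and Slc1a2 at 0.781. The 20 pairs between the blocks had a median of -0.394, and 5 of the 20 were above 0.

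Much of this rested on STAM-I-BET151 mouse 3, the highest of its group in all 5 regulators and the lowest in Glul, Oat and Slc1a2. Over the other 11 livers the median was 0.192 for the regulators, 0.486 for the metabolic genes and -0.0269 between the blocks. The pair of Axin2 and Tbx3 stayed at 0.837, and Oat and Slc1a2 at 0.702. The pair of Axin2 and Znrf3 went from 0.602 to -0.149, and Glul and Axin2 from -0.641 to 0.18.

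**Figure D4:**
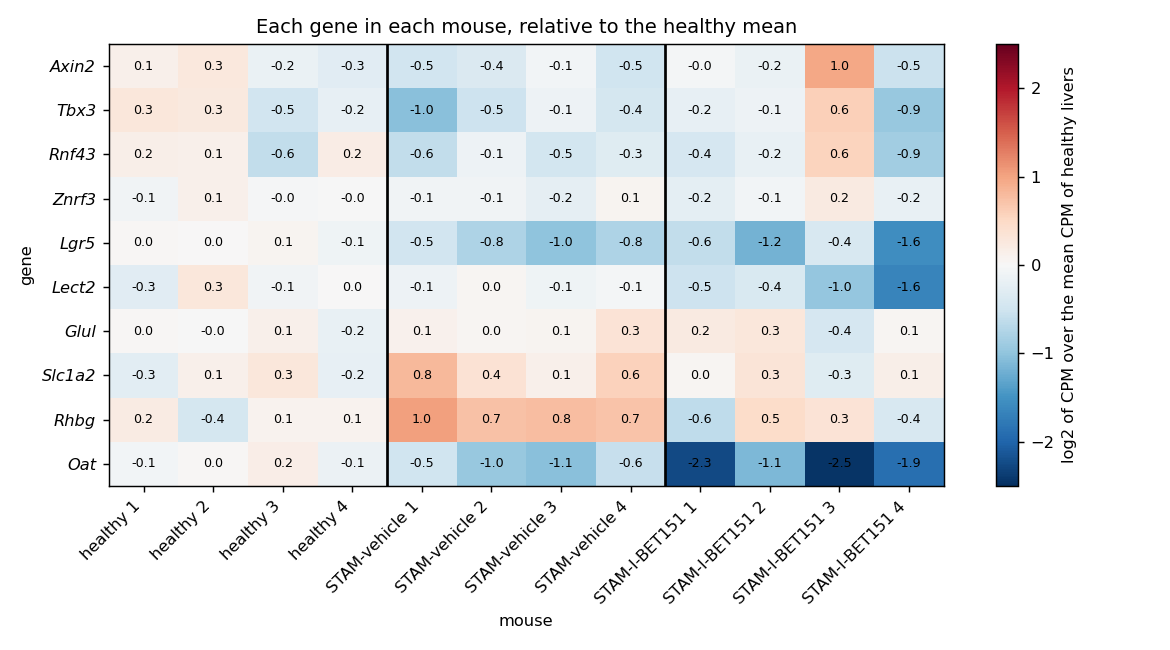
Log2 of each liver's CPM over the mean CPM of healthy livers (color, blue below 0 and red above, value printed in each cell), with genes in rows and livers in columns. Oat is blue in all 8 STAM livers, and the column of STAM-I-BET151 mouse 3 is above 0 in Axin2, Tbx3, Rnf43 and Znrf3 and below 0 in Oat and Glul.

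The genes whose log2 CPM was most like that of Glul over the 12 livers were Srp68 (Pearson r = 0.943), Gm6051 (0.925), Psmd7 (0.919), Nmt1 (0.917) and Eloa (0.906). Among those most like Axin2 were Ccdc141 (0.944), Gas5 (0.934), AA474408 (0.931) and Slc25a42 (0.92). All were chosen for their high values among all genes tested, and each was lowest when STAM-I-BET151 mouse 3 was left out (down to 0.78 for Eloa with Glul and 0.75 for Slc25a42 with Axin2). None of these genes is another member.

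Upstream of the members, no ligand of the central vein passed a test. Wnt2, Wnt9b and Rspo3, the known endothelial ligands of this zone, were added to the named genes after their values were seen. Wnt2 had 4.13 ± 0.992 CPM in healthy, 4.60 ± 0.553 in STAM-vehicle and 3.76 ± 1.05 in STAM-I-BET151 livers (SD, n = 4). Wnt9b had 2.16 ± 0.927, 3.53 ± 0.465 and 2.56 ± 0.597 CPM. Rspo3 had 5.04 ± 0.929, 4.97 ± 0.583 and 5.57 ± 1.37 CPM. None passed in any comparison, the smallest edgeR adjusted p being 0.153 for Wnt9b between STAM-vehicle and healthy livers, with a log2 difference of 0.70 (95% interval 0.10 to 1.30).

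Of 25 listed Wnt and R-spondin ligands and their secretion factors, 12 were tested. Wnt5b and Wnt11, ligands best known outside the β-catenin branch, rose between healthy and STAM-vehicle livers. Wnt5b went from 5.57 ± 0.384 to 9 ± 1.32 CPM (log2 difference 0.69, SE 0.14, edgeR adjusted p = 0.0087). Wnt11 was near its detection limit, at 0.0646 ± 0.0431 CPM in healthy and 0.518 ± 0.14 CPM in STAM-vehicle livers, with an edgeR adjusted p of 0.0246. Between STAM-I-BET151 and healthy livers Wnt11 alone passed, higher (edgeR adjusted p = 0.0142), and between the STAM groups 0 of 12 did (3 at an unadjusted p under 0.05 and 1 in DESeq2), Wnt5b standing at 7.32 ± 0.45 CPM in STAM-I-BET151 livers.

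Of 17 Wnt receptors and co-receptors, 12 were tested. Fzd5, a Frizzled receptor, fell between healthy (12.8 ± 0.961 CPM) and STAM-vehicle livers (8.22 ± 1.07 CPM), by 0.64 on the log2 scale (SE 0.14, edgeR adjusted p = 0.0159). In STAM-I-BET151 against healthy livers 4 passed. Fzd5 fell by 0.74, Fzd8 fell by 0.80 and Lgr4, the widely expressed relative of Lgr5, fell by 0.54, with edgeR adjusted p-values of 0.00493, 0.0132 and 0.0367. Fzd6 rose, from 4.77 ± 0.284 to 9.52 ± 1.35 CPM (log2 difference 1.00, SE 0.14, edgeR adjusted p = 0.000814). Between the STAM groups 0 of 12 passed (3 at an unadjusted p under 0.05 and 1 in DESeq2), and Lrp5, the most abundant of the list by CPM, had a difference of 0.04.

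All 17 signal transducers were tested and 0 passed edgeR's test or DESeq2 in any comparison, with 2, 2 and 4 at an unadjusted p under 0.05 in STAM-vehicle against healthy, STAM-I-BET151 against STAM-vehicle and STAM-I-BET151 against healthy livers. Ctnnb1, which encodes β-catenin, had 203 ± 10.6, 189 ± 10.5 and 183 ± 37.6 CPM in healthy, STAM-vehicle and STAM-I-BET151 livers. Of 17 inhibitors and feedback genes 10 were tested, and the called ones rose. Dkk3, a member of the Dickkopf family, rose from 3.17 ± 0.819 CPM in healthy to 7.08 ± 0.87 in STAM-vehicle livers (edgeR adjusted p = 0.0214) and 7.38 ± 3.10 in STAM-I-BET151 livers (edgeR adjusted p = 0.0107, against healthy). Wif1, a secreted Wnt-binding inhibitor near its detection limit, rose in both comparisons with healthy livers from 0.0424 ± 0.0285 CPM, to 0.45 ± 0.251 and 0.24 ± 0.0755 CPM. Frzb, a secreted Frizzled-related protein, rose in STAM-I-BET151 against healthy livers (1.86 ± 0.50 to 3.69 ± 0.466 CPM, edgeR adjusted p = 0.0207), as did 2 further genes of the list. In STAM-I-BET151 against STAM-vehicle livers 0 of 10 passed, with 1 at an unadjusted p under 0.05 and 0 in DESeq2. Notum, an enzyme that inactivates Wnt ligands, had 29.6 ± 2.74 CPM in STAM-vehicle and 31.0 ± 16.2 CPM in STAM-I-BET151 livers, with 54.6 CPM in mouse 3 and 23.2 ± 4.94 CPM (SD, n = 3) in the others.

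Other genes of pericentral hepatocytes, 27 listed and tested, moved in both directions. Between STAM-vehicle and healthy livers 5 fell and 3 rose. The cytochromes P450 Cyp3a11 (4596 ± 803 to 862 ± 142 CPM, edgeR adjusted p = 0.00339) and Cyp2c29 (426 ± 65.8 to 146 ± 27.1 CPM, edgeR adjusted p = 0.00355) fell, as did Csad, an enzyme of taurine synthesis (319 ± 65.9 to 119 ± 34.7 CPM, edgeR adjusted p = 0.002). Gstm3, a glutathione transferase, rose from 13.1 ± 0.565 to 43.1 ± 15.3 CPM, Slc13a3, a carrier of dicarboxylates, from 8.47 ± 1.29 to 25.9 ± 3.69 CPM and Slc22a3, a carrier of organic cations, from 10.1 ± 2.70 to 23.1 ± 5.30 CPM. In STAM-I-BET151 against healthy livers the same 3 rose and 7 fell, those with the smallest p being Gstm6, Lhpp and Cyp2c29. In STAM-I-BET151 against STAM-vehicle livers 0 of 27 passed (6 at an unadjusted p under 0.05 and 1 in DESeq2), and Cyp2e1 had 7544 ± 1857 CPM in STAM-vehicle and 6059 ± 1928 CPM in STAM-I-BET151 livers. The medians of this list were -0.21, -0.22 and -0.44 on the log2 scale in the 3 comparisons, beside the members' -0.21, -0.10 and -0.06.

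The periportal list of 20 genes, from the other side of the lobule, had 0 called genes between STAM-vehicle and healthy livers (7 at an unadjusted p under 0.05 and 1 in DESeq2) and 0 between the STAM groups (3 and 0). Cps1, the entry enzyme of the urea cycle, had 7733 ± 607, 6591 ± 1232 and 4100 ± 2065 CPM in healthy, STAM-vehicle and STAM-I-BET151 livers and did not pass in any comparison. The value of STAM-I-BET151 mouse 3 was 1710 CPM, and the other 3 had 4897 ± 1609. In STAM-I-BET151 against healthy livers 7 fell, among them Gls2, the liver glutaminase (431 ± 58.9 to 189 ± 71.2 CPM, edgeR adjusted p = 0.00602), Pck1, an enzyme of gluconeogenesis (5912 ± 943 to 2553 ± 784 CPM, edgeR adjusted p = 0.0142), and Hal, which degrades histidine (769 ± 157 to 341 ± 148 CPM, edgeR adjusted p = 0.0193). The list's median in that comparison was -0.84 on the log2 scale, beside -0.06 for the members and 0.061 for all genes tested. The 8 hepatocyte markers had a median of -0.80 there and the other pericentral genes -0.44, so lower values were not particular to the periportal list. Without STAM-I-BET151 mouse 3 the periportal median was -0.66 and that of the members -0.32, with -0.52 for the hepatocyte markers and -0.35 for the other pericentral genes. Cps1 is also 1 of the 8 hepatocyte markers, which were lower in sum in the STAM livers.

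**Figure D5:**
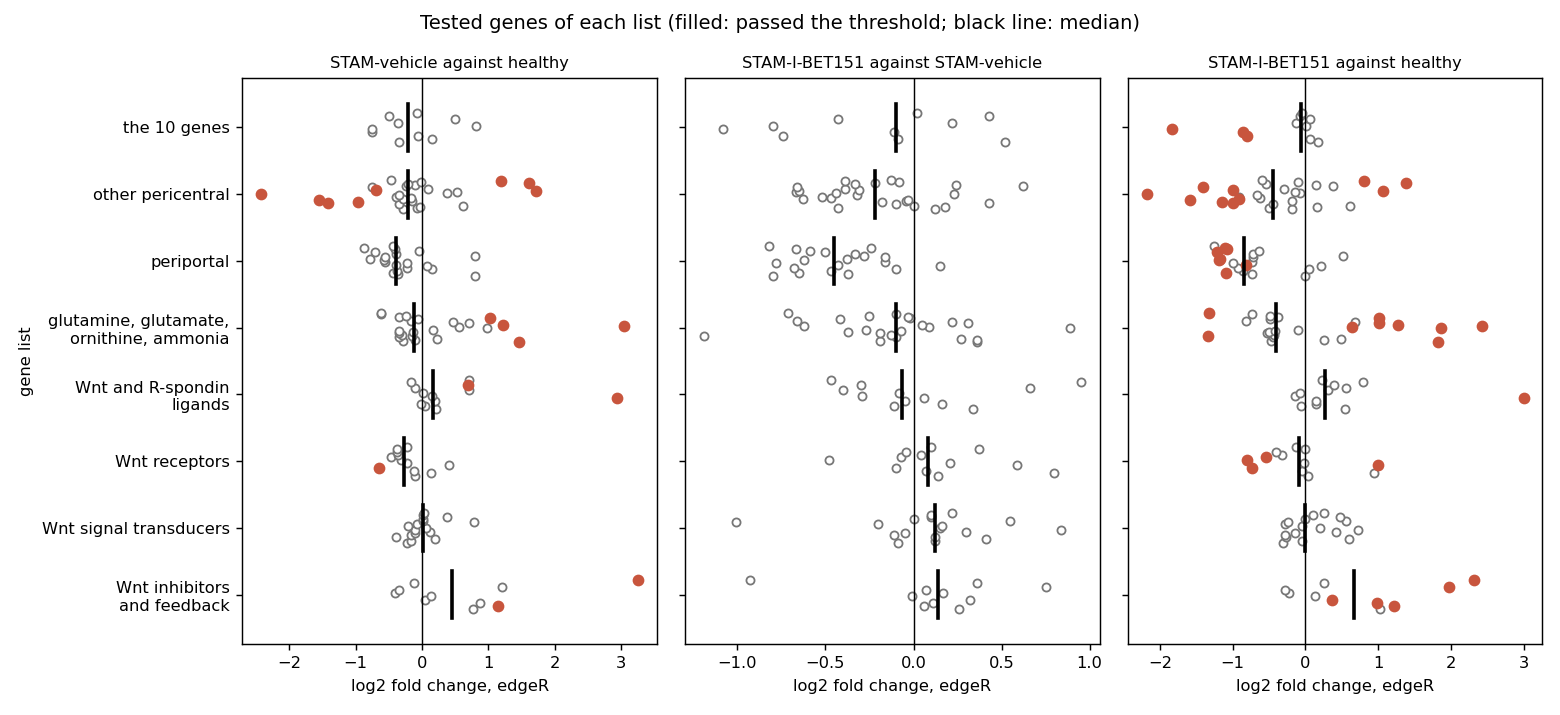
Log2 fold change (x axis) of each tested gene of 8 lists (y axis) in the 3 comparisons, with genes past the threshold filled and the list's median as a black line. The periportal list sits at a median of -0.84 in STAM-I-BET151 against healthy livers, where the 10 genes have a median of -0.06. These medians are -0.66 and -0.32 without STAM-I-BET151 mouse 3, which is included here. The 8 hepatocyte markers, not drawn here, had a median of -0.80 with that mouse and -0.52 without it.

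Around Oat and Glul, the list of glutamine, glutamate, ornithine and ammonia handling had 24 of 27 genes tested. Between STAM-vehicle and healthy livers 4 rose and 0 fell, at low levels. Without STAM-I-BET151 mouse 3 in the fit these counts were 6 and 4. Aldh18a1, which makes the same semialdehyde as Oat but from glutamate, rose from 0.807 ± 0.136 to 2.23 ± 1.07 CPM (edgeR adjusted p = 0.0104), Slc38a1, a glutamine carrier, from 1.37 ± 0.316 to 2.82 ± 0.734 CPM (edgeR adjusted p = 0.0279) and Slc1a1, a glutamate carrier related to Slc1a2, from 0.0469 ± 0.0269 to 0.40 ± 0.0818 CPM (edgeR adjusted p = 0.00582). In STAM-I-BET151 against healthy livers 7 rose and 2 fell. Pycr1, which completes proline synthesis, rose from 0.343 ± 0.0592 to 1.26 ± 0.357 CPM (edgeR adjusted p = 0.002) and Aldh18a1 to 2.85 ± 0.501 CPM (edgeR adjusted p = 0.00211).

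The 2 that fell were abundant. Slc7a2, a carrier of ornithine and arginine, went from 1175 ± 235 to 468 ± 218 CPM (log2 difference -1.33, SE 0.33, edgeR adjusted p = 0.0165), and Got1, the cytosolic aspartate aminotransferase, fell by 1.34 on the log2 scale from 506 ± 34.4 CPM (SE 0.38, edgeR adjusted p = 0.0295). In STAM-I-BET151 against STAM-vehicle livers 0 of 24 passed, with 4 at an unadjusted p under 0.05 and 1 in DESeq2. Slc38a3, the glutamine carrier that is highest in this list by CPM, had 1327 ± 85.8 CPM in STAM-vehicle and 1116 ± 137 CPM in STAM-I-BET151 livers.

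Without STAM-I-BET151 mouse 3, every gene of these lists that was named as called in STAM-I-BET151 against healthy livers passed again in the same direction. Some counts changed. In that comparison the periportal list had 9 lower genes in place of 7, the glutamine list 4 lower in place of 2, and the transducers 1 lower in place of 0. The inhibitors had 4 higher and 1 lower in place of 5 and 0, and the other pericentral genes 4 higher in place of 3. Between the STAM groups 1 receptor was higher, and 1 gene each of the other pericentral, periportal and glutamine lists was lower, in place of 0. Between STAM-vehicle and healthy livers, which do not include that mouse, 1 receptor was higher and 4 lower in place of 0 and 1. There 2 transducers were lower in place of 0, and 2 periportal genes were higher and 4 lower in place of 0. The glutamine list had 6 higher and 4 lower in place of 4 and 0. The other pericentral genes had 5 and 7 in place of 3 and 5, and the inhibitors 3 higher in place of 2.

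Markers of the other liver cells moved beside these values. The 8 central vein endothelial markers, which include Wnt2, Wnt9b and Rspo3, summed to 28.1 to 54.1 CPM in healthy, 48.0 to 51.6 in STAM-vehicle and 42.2 to 46.5 in STAM-I-BET151 livers. Of them Selp and Lhx6 rose in both comparisons with healthy livers and 0 passed between the STAM groups (1 at an unadjusted p under 0.05 and 1 in DESeq2). The Kupffer cell and macrophage markers summed to 206 to 299, 345 to 649 and 262 to 594 CPM in healthy, STAM-vehicle and STAM-I-BET151 livers, with 4 of 8 higher in each comparison with healthy livers. The T cell markers summed to 3.08 to 7.51, 7.49 to 9.65 and 3.10 to 4.77 CPM, and Cd4 fell between the STAM groups. The endothelial, stellate cell and cholangiocyte sums ranged from 353 to 544, from 220.0 to 371 and from 43.3 to 89.9 CPM over all livers. In the stellate cell list Col1a1 rose between healthy and STAM-vehicle livers (log2 difference 1.14, edgeR adjusted p = 0.0268), and Col1a1, Col3a1 and Pdgfrb rose and Reln fell between healthy and STAM-I-BET151 livers. Krt7 of the cholangiocyte list rose in the latter (0.82, edgeR adjusted p = 0.0257), and 0 of 8 endothelial markers passed in any comparison, with 1, 0 and 1 at an unadjusted p under 0.05 and 0 in DESeq2. Without STAM-I-BET151 mouse 3 in the fit, 1 endothelial marker was called higher in each comparison with healthy livers. The Kupffer cell and macrophage list then had 7 of 8 higher in each of these, and the stellate cell list 2 higher and 1 lower. The central vein list had 1 lower between the STAM groups and 1 lower in STAM-I-BET151 against healthy livers. In STAM-vehicle against healthy livers 2 T cell markers and 1 cholangiocyte marker were higher. The part of these cells in the members' values was not tested.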

How the data were processed

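Total liver RNA was sequenced from 12 mice as paired reads from a stranded kit. Per the labels and the study's methods, the authors aligned the reads with STAR 2.5.1b to mm10 and counted uniquely mapped ones with HTSeq, while the names of the deposited tables carry another counter's name; the annotation release and the strand setting are not given in the sources used here. The authors deposited whole-number counts per gene, without normalization, and their methods leave out 1 STAM-I-BET151 sample without naming it, so all 4 were used here. Dosing weeks and ages come from the study's methods. Groups and mouse numbers come from the sample labels.

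Gene symbols and positions were taken by identifier from GENCODE M21 (GRCm38), which named 47310 of 47729 identifiers. Promoter sequences are from RefSeq. Counts were fitted in R 4.3.3 with edgeR 4.0.16 (TMM, filterByExpr with a minimum count of 10, quasi-likelihood test, Benjamini-Hochberg adjustment), with all 12 mice in 1 fit, so that STAM-I-BET151 mice also set the spread for the other comparison. The thresholds were an adjusted p of 0.05, 0.1 and 0.05 for STAM-vehicle against healthy, STAM-I-BET151 against STAM-vehicle and STAM-I-BET151 against healthy livers; the last is not a comparison of the study. The comparisons share livers. The standard error is the log2 fold change divided by the square root of F. CPM is scaled to the TMM-normalized total, and CPM per kilobase uses the union of exons.

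The members and the lists were chosen with earlier results of these data known. Named are all members, up to 3 called genes per list, direction and comparison with the smallest p, and, where none was called, the gene of the list with the highest mean CPM (a number set after the values were seen). For Glul and Axin2, the 5 genes with the highest Pearson r of log2 CPM (prior count 2) were taken, of which 1 for Axin2 is not reported here. The promoter words, the split into regulators and metabolic genes and the 3 vein ligands were chosen after seeing the data.

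Alternatives were DESeq2 1.42.0, RLE factors, no filter beyond 1 count, at least 10 counts in every mouse, a fit of the compared groups alone, blocking by mouse number, the lane taken from table names, limma 3.58.1 voom with sample weights, each mouse left out, another threshold, a prior count of 0.5 and transcript length. Added after seeing the data were 2 groups without STAM-I-BET151 mouse 3, totals without TMM and group means removed. In simulated counts of 16823 genes for STAM-I-BET151 against STAM-vehicle, edgeR recovered 14.9% of genes changed 1.5-fold, 50.7% changed 2-fold and 90.9% changed 4-fold. Counts of every pair of mice within a group differed by more than sampling noise. Replicates are taken as separate mice, and p-values measure the spread between these 12. Figures were drawn with Matplotlib 3.10.9.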

Additional observations from a re-analysis of the deposited data

Results flagged for a closer look

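In 30 groups of 4 mice (10 genes in 3 groups), 1 had a mouse set far apart from the other 3 by Dixon's test at the 95% level, which chance would flag in about 1 of 20. Healthy mouse 3 had 22.4 CPM of Rnf43, where the other healthy livers had 37.1 to 39.1 CPM. Without it the log2 difference of STAM-vehicle from healthy livers for Rnf43 was -0.52 in place of -0.36, and it did not pass in either fit. The same liver was the highest of its group in Glul, Oat, Slc1a2 and Lgr5 and the lowest in Tbx3 and Rnf43.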

How the results depend on the processing

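The count of members past the threshold depended on the fit. For STAM-vehicle against healthy livers it was 0, and became 3 with DESeq2, 3 with the compared groups alone, 4 with sample weights (voom), 2 at a threshold of 0.1, 1 each with RLE factors, no filter on low counts and totals without TMM, and 0 to 3 with a mouse left out. For STAM-I-BET151 against STAM-vehicle livers it was 0, and became 2 with DESeq2, 3 with voom and 0 to 2 with a mouse left out. For STAM-I-BET151 against healthy livers it was 3, and became 1 with the compared groups alone, 0 with the lane covariate, 4 with voom, 2 with totals without TMM (Lgr5 and Lect2 lost, Glul gained) and 1 to 3 with a mouse left out. Over all 16823 genes tested voom called 3175 higher and 2497 lower, 520 and 685, and 2683 and 2197 in these 3 comparisons. The reported fit called 963 and 232, 16 and 43, and 1662 and 884. In either direction RLE factors called 1158, 55 and 2497 genes, and totals without TMM 1319, 6 and 3480. The counts over all genes with the compared groups alone and with lane are not given here. With the mouse number as a block (replicate block) the counts of members were 0, 0 and 3, and Oat in STAM-I-BET151 against healthy livers was -1.896 (edgeR adjusted p = 0.0052). Deviations of same-numbered mice had a mean correlation of -0.0927, so the numbers were not taken to pair mice. Totals without TMM moved the median of all genes to 0.28, 0.13 and 0.46 in the 3 comparisons and the share of calls that were higher from 80.6, 27.1 and 65.3% to 95.4, 33.3 and 92.9%.

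None of the log2 differences that changed sign passed in the reported fit. For STAM-vehicle against healthy livers they were, with the lane covariate, Lect2 0.151, Cps1 0.381 and Ctnnb1 0.015. With totals without TMM they were Znrf3 0.192, Lect2 0.217, Cps1 0.038, Ctnnb1 0.181 and Rspo3 0.25, and Rspo3 was 0.009 with at least 10 counts in every mouse, 0.001 with the block and 0.029 with voom. For STAM-I-BET151 against STAM-vehicle livers they were, in the compared groups without STAM-I-BET151 mouse 3 (chosen after seeing the data), Glul 0.039, Rnf43 -0.109, Znrf3 -0.086, Ctnnb1 0.076 and Notum -0.353. With voom they were Rnf43 -0.247, Znrf3 -0.133, Ctnnb1 0.075 and Notum -0.387. Others were Lgr5 0.08 and Ctnnb1 0.014 with totals without TMM, Znrf3 -0.005 with no filter, and Notum -0.019 with the block and -0.015 with lane. For STAM-I-BET151 against healthy livers Rhbg was -0.032 with DESeq2, -0.015 with RLE, -0.02 with no filter, -0.012 with the block, -0.148 with lane, -0.312 with voom and -0.119 in the compared groups without mouse 3. Axin2 was -0.153, -0.167 and -0.227 in the last 3 of these, and Wnt9b was -0.04 with lane. With totals without TMM, Tbx3 was 0.419, Rnf43 0.355, Znrf3 0.375, Ctnnb1 0.195 and Wnt2 0.199. The cause was not tested.

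With a mouse left out, signs changed within these ranges. For STAM-vehicle against healthy livers they were Lect2 -0.139 to 0.045, Rspo3 -0.107 to 0.075 and Wnt2 -0.012 to 0.262. For STAM-I-BET151 against STAM-vehicle livers they were Glul -0.178 to 0.049, Lgr5 -0.294 to 0.057, Rnf43 -0.1 to 0.404, Znrf3 -0.076 to 0.078, Ctnnb1 -0.156 to 0.087, Lrp5 -0.114 to 0.186 and Notum -0.344 to 0.266. For STAM-I-BET151 against healthy livers they were Glul -0.027 to 0.177, Rhbg -0.179 to 0.173, Slc1a2 -0.034 to 0.167, Axin2 -0.247 to 0.342, Tbx3 -0.394 to 0.129, Rnf43 -0.479 to 0.038 and Rspo3 -0.01 to 0.269. Oat, Lgr5 and Lect2 kept their direction in STAM-I-BET151 against healthy livers in every alternative run. With a mouse left out, this follows from the lack of overlap between these groups. The other alternatives reuse the same livers. Lgr5 and Rhbg had counts of at most 360, which limits their precision.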
